A study of Mus musculus with 6 samples.

Results

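The 33 genes described here encode enzymes and complex subunits that place or remove methyl groups on histone lysines, apart from the KDM5 family itself. They comprise 17 lysine demethylase genes, or erasers, and 16 genes of the H3K4 methyltransferases and their complexes, or writers. Each gene was chosen by name and was represented by 1 probe set of the array, the one with the highest mean over all 6 arrays among those that report a single gene. Probe sets with an ID ending in _x_at, the mark for possible cross-hybridization, were taken only where a gene had no other. All 33 genes were measured, out of 18194 genes in the whole table, and together they had 77 single-gene probe sets.

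The cells were immortalized embryonic fibroblasts from mice of mixed strain background, and every group was Kdm5a-/-. Their RNA was read on Affymetrix M430 2.0 arrays for the mouse. The first group had KDM5A-H483A put back, a mutant of the Jumonji demethylase KDM5A with an alanine in place of a histidine of the catalytic domain. The second had wild-type KDM5A put back, and the last carried only the empty vector. Each group had 2 arrays, called biological replicates in the labels which do not say whether they came from separate cultures. The p-values therefore measure only the spread between such arrays, which may be technical. The sources used here do not give whether each group was 1 clone or a pool of cells, or which promoter drove KDM5A. The deposited values are log2 expression values made with RMA, and a difference of 1 on this scale is a doubling of signal.

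Kdm5a itself, the deleted and reintroduced gene, had 6.11 and 5.89 with KDM5A-H483A, 5.96 and 5.83 in wild-type KDM5A cells, and 5.89 and 5.83 with empty vector. The difference from empty vector was 0.14 (95% confidence interval -0.18 to 0.46) with the mutant and 0.03 (-0.29 to 0.36) with the wild type, and neither passed in limma. The values thus show no higher Kdm5a signal where KDM5A was put back. Where the probes lie relative to the deleted part and to the reintroduced sequence is not known here, so this measurement does not check the labels, and the groups below go by the labels alone.

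Methylation of lysine 4 of histone H3 marks promoters and enhancers. The KMT2 and SET1 enzymes place it as part of large complexes that share a core of Wdr5, Rbbp5, Ash2l and Dpy30, while KDM1 enzymes remove it by an amine oxidase reaction and KDM5 enzymes by a Jumonji (JmjC) dioxygenase reaction. The other JmjC demethylases act mainly on lysines 9, 27 and 36 of the same histone. KDM5A itself is known as a binding partner of the retinoblastoma protein.

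All 12 fibroblast markers examined, among them Col1a1 and Vim, lay above the median level of all probe sets. Of the markers of other cell types, 1 of 5 epithelial, 1 of 5 macrophage, 1 of 4 endothelial, 2 of 4 muscle, 2 of 4 neural and 0 of 3 pluripotency genes did so. The arrays had medians between 4.55 and 4.60. Replicate arrays were farther apart where KDM5A had been put back. A distance of at least 0.5 between replicates was found for 14.9% of all genes in the KDM5A-H483A group, 11.2% in the wild-type KDM5A group and 3.79% in the empty vector group. The mean level of the 12 fibroblast markers moved with this, at 10.3 and 9.25 with KDM5A-H483A, 10.5 and 9.20 in wild-type KDM5A cells, and 10.2 and 9.84 with empty vector. The 12 did not move together in the mutant group: 9 were lower on replicate 2, such as Col3a1 at 12.9 and 10.2, and 3 were higher, Vim at 13.0 and 13.4, S100a4 at 11.5 and 12.1, and Thy1 at 7.31 and 7.83. In the wild-type group all 12 were lower on replicate 2. In each such pair of values here and below, replicate 1 stands before replicate 2. The number of arrays limits the precision. In bulk samples such as these, fewer cells of a type and less RNA per cell cannot be told apart.

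No gene of the table, and so none of the 33, passed an adjusted p of 0.05 in limma in any of the 3 comparisons (0% of 18194 genes each). At an unadjusted p under 0.05, limma gave 694 genes (3.81%) for KDM5A-H483A against wild-type KDM5A, 301 (1.65%) for KDM5A-H483A against empty vector and 459 (2.52%) for wild-type KDM5A against empty vector. The 33 genes contributed 2, 0 and 0 to these counts. The 2 were Kdm3a and Setd1a, an eraser and a writer, both with lower values in cells with KDM5A-H483A than in cells with wild-type KDM5A. The 95% confidence interval, which is not adjusted for the number of genes, reached a median of 0.38 to either side of the estimate over the 33 genes. Over all genes it was 0.37. Estimates below about that size were mostly not separated from 0 even without adjustment, and the adjusted threshold asks for more. Larger estimates did not pass the adjusted threshold either, such as -0.66 for Kmt2c between KDM5A-H483A and empty vector.

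Promoters are shown for 3 genes on which the results below turn. Kdm3a had the smallest unadjusted p of the 33 genes between the KDM5A forms, and Kmt2c and Kdm7a had the widest distances between replicate arrays. Several of the enzymes described here read CpG pairs in DNA: Kdm2a, Kdm2b, Kmt2a, Kmt2b and Cxxc1 carry CXXC zinc fingers, which bind CpG that is not methylated. Capitals mark each CpG in the 300 bases that run from 250 before to 50 after the transcript start, 5′ to 3′ on the gene's strand. The sequences are those of RefSeq on build GRCm38.p6. Kdm3a lies on the minus strand at chr6:71632868-71633167, Kdm7a on the minus strand at chr6:39206724-39207023, and Kmt2c on the minus strand at chr5:25498734-25499033.
Kdm3a: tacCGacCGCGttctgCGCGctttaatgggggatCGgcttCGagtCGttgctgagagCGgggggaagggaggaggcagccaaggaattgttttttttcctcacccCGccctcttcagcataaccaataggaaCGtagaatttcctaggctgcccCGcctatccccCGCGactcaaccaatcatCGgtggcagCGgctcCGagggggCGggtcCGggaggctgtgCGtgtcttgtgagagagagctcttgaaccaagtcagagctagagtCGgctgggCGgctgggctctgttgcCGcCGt
Kdm7a: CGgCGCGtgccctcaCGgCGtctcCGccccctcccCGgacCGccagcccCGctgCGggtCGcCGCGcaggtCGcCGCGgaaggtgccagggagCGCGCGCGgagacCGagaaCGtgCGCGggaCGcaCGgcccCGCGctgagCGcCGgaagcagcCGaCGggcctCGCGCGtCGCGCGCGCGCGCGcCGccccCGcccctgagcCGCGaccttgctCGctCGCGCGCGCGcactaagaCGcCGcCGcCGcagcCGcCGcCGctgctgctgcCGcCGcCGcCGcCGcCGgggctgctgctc
Kmt2c: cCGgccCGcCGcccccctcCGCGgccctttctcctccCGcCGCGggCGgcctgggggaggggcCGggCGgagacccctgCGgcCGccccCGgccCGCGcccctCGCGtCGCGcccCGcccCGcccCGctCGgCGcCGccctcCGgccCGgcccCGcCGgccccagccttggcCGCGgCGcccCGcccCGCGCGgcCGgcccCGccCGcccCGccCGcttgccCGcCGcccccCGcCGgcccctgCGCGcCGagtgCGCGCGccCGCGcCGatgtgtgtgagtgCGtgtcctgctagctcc

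The Kdm3a window held 24 CpG, the Kdm7a window 65 and the Kmt2c window 56. RefSeq promoters were matched for 25 of the 33 genes, and where a gene had several starts the one farthest upstream was taken. The median was 24 CpG over the 25 members and 7 over the promoters of 27025 genes, and 22 of the 25 lay above 7. The exceptions were Kdm4c with 0, Dpy30 with 1 and Ncoa6 with 1. The 1 start listed for Ncoa6, with a window at chr2:155440734-155441033, lies inside the gene, whose 5′ end is at 155473911. The windows of Kdm6a, Kmt2d, Hcfc1 and Jmjd6 also lie inside their genes. That of Kdm6a is at chrX:18162325-18162624, in a gene whose 5′ end is at 18160862. The counts of all these genes therefore need not be those of the main promoter. Kdm4c had 2 starts listed and Dpy30 4, and their counts depend on the start taken. The letters ACGTG, 1 form of the core to which hypoxia-inducible factors bind, were searched on both strands. Each match also contains 1 of the CpG counted above. ACGTG occurred in 7 of the 25 windows, against 19.6% of all 27025 windows. It was found 3 times for Kdm6a and once for Jmjd6, both in windows inside the gene. It was found once each for Kdm7a, Kdm8, Phf8, Rbbp5 and Wdr5. It did not occur in the Kdm3a window. The other form of the core, GCGTG, was not counted, and the Kdm3a window printed above does hold it. Ash2l, Cxxc1, Kdm2a, Kdm3b, Kdm4b, Kdm6b, Kmt2b and Setd1b had no matched window.

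**Figure D1:**
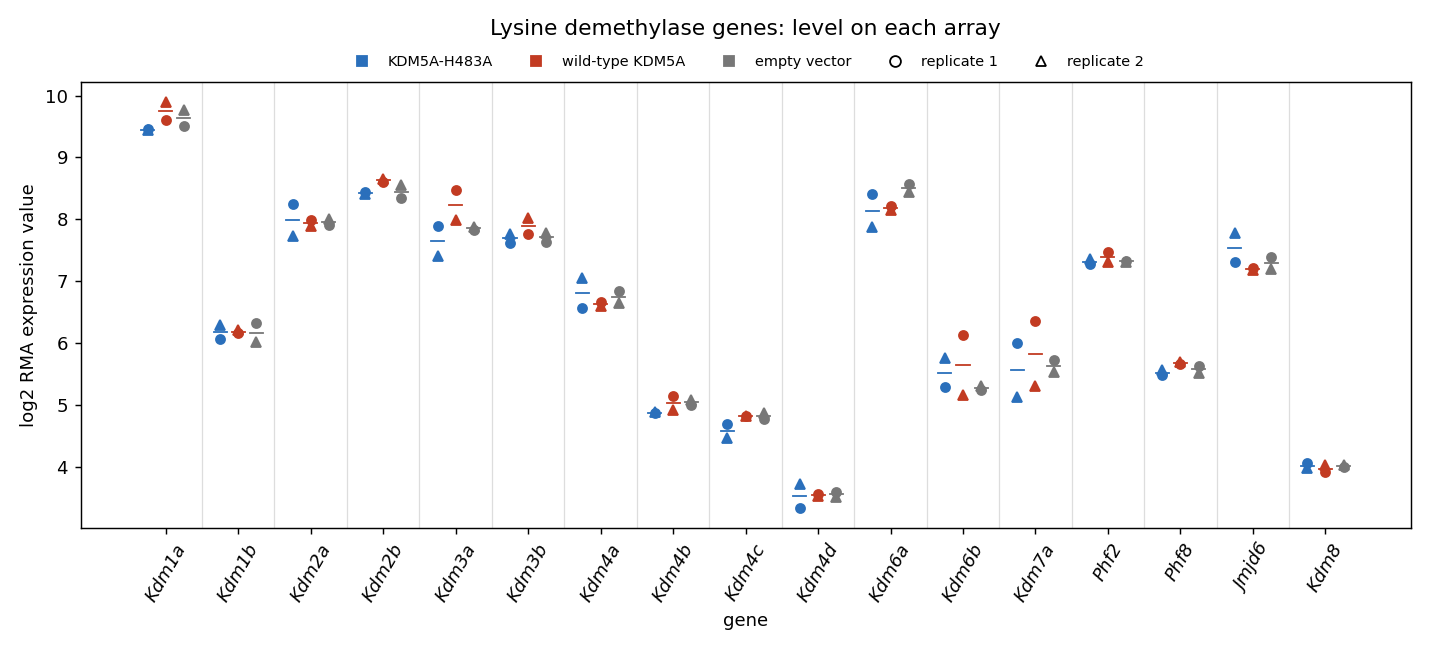
Log2 RMA expression value (vertical axis) of the 17 lysine demethylase genes on each of the 6 arrays, with a short line at each group mean. Kdm3a is highest on the wild-type KDM5A arrays (8.47 and 7.99), and the Kdm6b and Kdm7a values on those 2 arrays lie farthest apart.

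Kdm3a encodes a JmjC enzyme that removes methyl groups from lysine 9 of histone H3, and it is a known target of hypoxia-inducible factors. Its level was 7.89 and 7.40 with KDM5A-H483A, 8.47 and 7.99 in wild-type KDM5A cells, and 7.83 and 7.88 with empty vector. Both wild-type arrays were above the 4 others, and the KDM5A-H483A arrays did not overlap with them. One of them was about level with the empty vector arrays and the other was below. Wild-type arrays above the 4 others were a pattern of 7.38% of all genes and of 5 of the 33: Kdm2b, Kdm3a, Phf8, Kmt2b and Rbbp5. The difference between KDM5A-H483A and wild-type KDM5A was -0.59 (SE 0.22, 95% confidence interval -1.12 to -0.06, limma unadjusted p = 0.0353, adjusted p = 0.928). That is a level 1.50-fold lower with the mutant, which did not pass the threshold. The replicates of a group were nearly as far apart, with replicate 2 lower by 0.49 in the mutant group and by 0.48 in the wild-type group. Without wild-type KDM5A replicate 1 or without KDM5A-H483A replicate 2 the difference was -0.35, and without either of the other arrays of these groups it was -0.83. The array has 1 single-gene probe set for Kdm3a. Its closest relative Kdm3b, with the same substrate, had 7.62 and 7.76 with KDM5A-H483A, 7.76 and 8.02 in wild-type KDM5A cells, and 7.64 and 7.79 with empty vector. The Kdm3b difference between the KDM5A forms was -0.20 (95% confidence interval -0.55 to 0.15).

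Kdm1a, also called LSD1, removes mono- and dimethylation of H3K4 with the CoREST proteins. Its level was 9.45 and 9.44 with KDM5A-H483A, 9.61 and 9.89 in wild-type KDM5A cells, and 9.51 and 9.77 with empty vector. Both mutant arrays were below the 4 others, a pattern that 5.78% of all genes had and that 6 of the 33 shared: Kdm1a, Kdm4b, Kdm4c, Setd1a, Rbbp5 and Paxip1. The difference from wild-type KDM5A was -0.30 (95% confidence interval -0.68 to 0.07) and did not pass. A second Kdm1a probe set gave -0.26, with 7.70 and 7.60 with KDM5A-H483A against 7.82 and 8.01 with wild-type KDM5A. Its empty vector arrays were at 7.59 and 7.86, so it did not repeat the pattern of mutant arrays below the 4 others. Kdm1b, the other amine oxidase of the family, had overlapping groups with values between 6.02 and 6.32.

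The KDM2 enzymes Kdm2a and Kdm2b remove methyl groups mainly from lysine 36 of histone H3 and bind CpG-rich DNA. Kdm2b had 8.44 and 8.41 with KDM5A-H483A, 8.61 and 8.66 in wild-type KDM5A cells, and 8.34 and 8.56 with empty vector. The wild-type arrays stood above the 4 others, and a second probe set placed them there too, at 8.02 and 7.85 against 7.47 to 7.77. The difference between the KDM5A forms was -0.20 (95% confidence interval -0.52 to 0.11) for the first probe set and -0.33 for the second. Kdm2a differed by 0.05 between the forms, with KDM5A-H483A arrays at 8.25 and 7.73 on either side of all the others.

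The KDM4 enzymes act on lysines 9 and 36. Kdm4c had 4.69 and 4.47 with KDM5A-H483A, 4.82 and 4.82 in wild-type KDM5A cells, and 4.78 and 4.87 with empty vector. Kdm4b had 4.87 and 4.88 with KDM5A-H483A, 5.15 and 4.92 in wild-type KDM5A cells, and 5.01 and 5.08 with empty vector. For both genes the mutant arrays were the lowest of the 6, and the differences from empty vector were -0.24 (95% confidence interval -0.56 to 0.07) for Kdm4c and -0.17 (-0.49 to 0.15) for Kdm4b. Kdm4a, between 6.57 and 7.05, and the weakly detected Kdm4d, between 3.34 and 3.72, had overlapping groups. The Kdm4d probe set and that of Kdm8 lay below the median level of all probe sets, where RMA compresses differences.

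Kdm6a, or UTX, removes methylation of lysine 27 and sits in the complexes of Kmt2c and Kmt2d. Its level was 8.41 and 7.88 with KDM5A-H483A, 8.21 and 8.15 in wild-type KDM5A cells, and 8.58 and 8.44 with empty vector. All 4 arrays with either form of KDM5A were below both empty vector arrays, a pattern that 5.15% of all genes had and that Kdm6a shared with Setd7 among the 33. Kdm6a was -0.37 (95% confidence interval -0.83 to 0.09, limma unadjusted p = 0.101) with KDM5A-H483A and -0.33 (-0.79 to 0.13, unadjusted p = 0.134) with wild-type KDM5A, each against the same empty vector arrays. Without KDM5A-H483A replicate 2 the mutant's difference was -0.10, and without replicate 1 it was -0.63. A second Kdm6a probe set had 6.82 and 5.92 with KDM5A-H483A, 7.08 and 7.06 in wild-type KDM5A cells, and 6.78 and 7.24 with empty vector. It did not repeat the pattern: its difference from empty vector was -0.64 with KDM5A-H483A and 0.06 with wild-type KDM5A.

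Kdm6b, or JMJD3, shares the substrate of Kdm6a and is known as an inducible gene in stimulated cells. One wild-type KDM5A array stood apart at 6.14, and the other wild-type array was at 5.17. The KDM5A-H483A arrays were at 5.29 and 5.75 and the empty vector arrays at 5.25 and 5.31. A second Kdm6b probe set lay between 4.71 and 4.95 on all 6 arrays, so the high value was seen on 1 of the probe sets. The difference between wild-type KDM5A and empty vector was 0.37 (95% confidence interval -0.40 to 1.15).

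Kdm7a, Phf2 and Phf8 combine a JmjC domain with a PHD finger that binds trimethylated H3K4, so these erasers of other marks are drawn to the mark that KDM5A removes. Kdm7a had 6.0 and 5.13 with KDM5A-H483A, 6.35 and 5.31 in wild-type KDM5A cells, and 5.73 and 5.54 with empty vector. Replicate 2 was the lower array in each group, by 0.87 with KDM5A-H483A, 1.05 with wild-type KDM5A and 0.20 with empty vector, and the group means differed by at most 0.27. A second Kdm7a probe set had the same order of arrays within the KDM5A groups, at 4.56 and 3.32 with KDM5A-H483A and 4.86 and 3.97 with wild-type KDM5A. Phf8 was at 5.49 and 5.56 with KDM5A-H483A, 5.67 and 5.70 in wild-type KDM5A cells, and 5.63 and 5.52 with empty vector, and its wild-type arrays were the 2 highest. Phf2 stayed between 7.27 and 7.47 on all arrays.

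Jmjd6 and Kdm8 belong to JmjC proteins whose better established reaction is hydroxylation of amino acids in proteins. Jmjd6 had 7.30 and 7.79 with KDM5A-H483A, 7.21 and 7.18 in wild-type KDM5A cells, and 7.39 and 7.20 with empty vector. It was the member with both mutant arrays above both wild-type arrays, by 0.35 (95% confidence interval -0.09 to 0.79). Of its other probe sets above the median level, one gave 0.86, with 4.86 and 5.68 against 4.42 and 4.40, and another gave 0.03. Kdm8 stayed between 3.91 and 4.06.

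**Figure D2:**
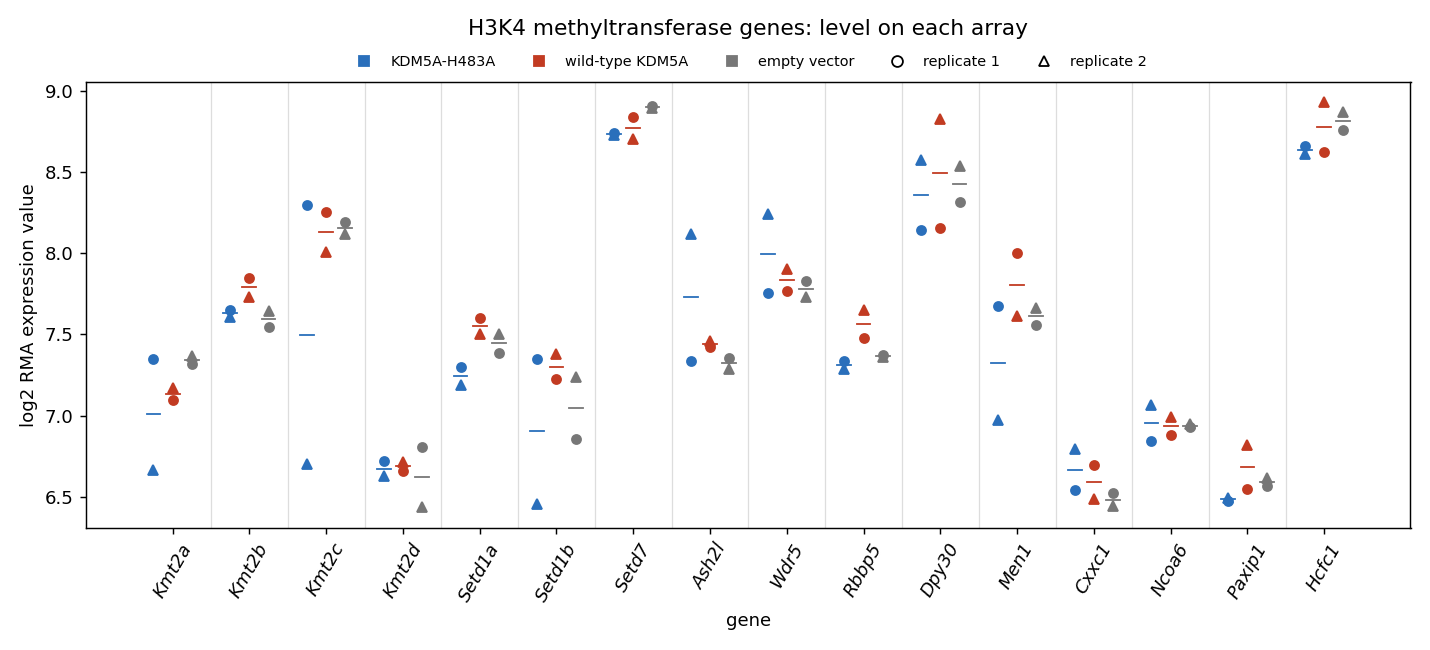
Log2 RMA expression value (vertical axis) of the 16 H3K4 methyltransferase genes on each of the 6 arrays, with a short line at each group mean. For Kmt2c, 5 arrays lie between 8.01 and 8.30 and KDM5A-H483A replicate 2 lies at 6.70.

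Among the writers, Kmt2a and Kmt2b form the complexes with menin, Kmt2c and Kmt2d those that act at enhancers, and Setd1a and Setd1b those that place most trimethylation at promoters. Setd1a had 7.30 and 7.19 with KDM5A-H483A, 7.60 and 7.50 in wild-type KDM5A cells, and 7.39 and 7.50 with empty vector. Both mutant arrays were below the 4 others. The difference from wild-type KDM5A was -0.30 (SE 0.12, 95% confidence interval -0.60 to -0.004, limma unadjusted p = 0.0475, adjusted p = 0.928), a level 1.23-fold lower that did not pass the threshold. The unadjusted p was under 0.05 in 2 of 14 alternatives and ran up to 0.271, where the mean of all Setd1a probe sets gave a difference of -0.13. That mean includes a dim probe set, at a mean level of 3.20 and below the median level of all probe sets, which differed by 0.04. Against empty vector Setd1a differed by -0.20 with KDM5A-H483A (95% confidence interval -0.50 to 0.10) and by 0.10 with wild-type KDM5A (-0.20 to 0.40). Its paralog Setd1b had 7.35 and 6.46 with KDM5A-H483A, 7.22 and 7.38 in wild-type KDM5A cells, and 6.86 and 7.24 with empty vector. Its groups overlapped, and 1 mutant array was low.

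Rbbp5, a core subunit that pairs with Ash2l, had 7.33 and 7.28 with KDM5A-H483A, 7.48 and 7.65 in wild-type KDM5A cells, and 7.37 and 7.36 with empty vector. It was the single member with both wild-type arrays above and both mutant arrays below the empty vector arrays. The share of all genes with this order was not counted. The nearer mutant array, at 7.33, was just below the empty vector arrays at 7.37 and 7.36. The Rbbp5 difference between the mutant and empty vector had an interval of -0.35 to 0.24. Rbbp5 differed by -0.25 between the KDM5A forms (95% confidence interval -0.55 to 0.04) and by 0.20 between wild-type KDM5A and empty vector (-0.10 to 0.50).

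Kmt2b had 7.65 and 7.61 with KDM5A-H483A, 7.85 and 7.73 in wild-type KDM5A cells, and 7.55 and 7.64 with empty vector, so the wild-type arrays were the 2 highest. Its difference between wild-type KDM5A and empty vector was 0.20 (95% confidence interval -0.10 to 0.49). Setd7, a monomethyltransferase of H3K4 that acts outside these complexes and also on other proteins, had 8.74 and 8.73 with KDM5A-H483A, 8.84 and 8.70 in wild-type KDM5A cells, and 8.91 and 8.89 with empty vector. Its arrays with either KDM5A form were below both empty vector arrays, with differences of -0.17 for the mutant and -0.13 for the wild type, and intervals of -0.46 to 0.12 and -0.42 to 0.16. Kmt2d stayed between 6.43 and 6.80, with overlapping groups.

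Kmt2c had 8.30 and 6.70 with KDM5A-H483A, 8.25 and 8.01 in wild-type KDM5A cells, and 8.19 and 8.12 with empty vector. Its mean difference from empty vector, -0.66 with the mutant (SE 0.47, 95% confidence interval -1.78 to 0.46, limma adjusted p = 0.999), came from 1 array. It was -1.45 without KDM5A-H483A replicate 1 and 0.14 without replicate 2. The other 2 Kmt2c probe sets above the median level were also lower on that array, by 0.61 and 1.07 from replicate 1. In the wild-type KDM5A group replicate 2 was also the lower array on all 3 probe sets, at -0.24, -0.06 and -0.43 from replicate 1. Kmt2a had 7.35 and 6.67 with KDM5A-H483A, 7.10 and 7.17 in wild-type KDM5A cells, and 7.32 and 7.36 with empty vector. Its difference between mutant and empty vector was -0.68 without KDM5A-H483A replicate 1 and 0.01 without KDM5A-H483A replicate 2. A second Kmt2a probe set had 5.81 and 5.18 with KDM5A-H483A, 6.16 and 5.40 in wild-type KDM5A cells, and 5.62 and 5.95 with empty vector. On that probe set replicate 2 was the lower array in both KDM5A groups.

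Men1, the gene of menin, showed the same low array, with 7.68 and 6.97 with KDM5A-H483A, 8.0 and 7.61 in wild-type KDM5A cells, and 7.56 and 7.66 with empty vector. Its difference between the KDM5A forms was -0.48 (95% confidence interval -1.10 to 0.13). The core subunits Ash2l and Wdr5 stood the other way. Ash2l had 7.34 and 8.12 with KDM5A-H483A, 7.42 and 7.46 in wild-type KDM5A cells, and 7.36 and 7.29 with empty vector. Wdr5 had 7.75 and 8.24 with KDM5A-H483A, 7.77 and 7.90 in wild-type KDM5A cells, and 7.83 and 7.73 with empty vector, so the high value of both genes was on KDM5A-H483A replicate 2. Dpy30, the small core subunit that binds Ash2l, was higher on replicate 2 in all groups, at 8.14 and 8.58 with KDM5A-H483A, 8.16 and 8.83 in wild-type KDM5A cells, and 8.32 and 8.54 with empty vector.

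Among the other subunits, Cxxc1, the CpG-binding subunit of the SET1 complexes, had 6.54 and 6.80 with KDM5A-H483A, 6.70 and 6.49 in wild-type KDM5A cells, and 6.52 and 6.44 with empty vector. By the chosen probe sets, it was the member with both mutant arrays above both empty vector arrays, by 0.19 (95% confidence interval -0.17 to 0.54). Paxip1, a subunit of the Kmt2c and Kmt2d complexes, had 6.48 and 6.49 with KDM5A-H483A, 6.55 and 6.82 in wild-type KDM5A cells, and 6.56 and 6.62 with empty vector. The mutant arrays were lowest on this probe set, with a difference of -0.20 between the KDM5A forms. Of the other Paxip1 probe sets above the median level, one gave 0.11, another 0.29 and the _x_at one -0.08. Ncoa6, of the same complexes, lay between 6.85 and 7.07. Hcfc1, which joins the Setd1a and Kmt2a complexes among others, lay between 8.61 and 8.93.

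**Figure D3:**
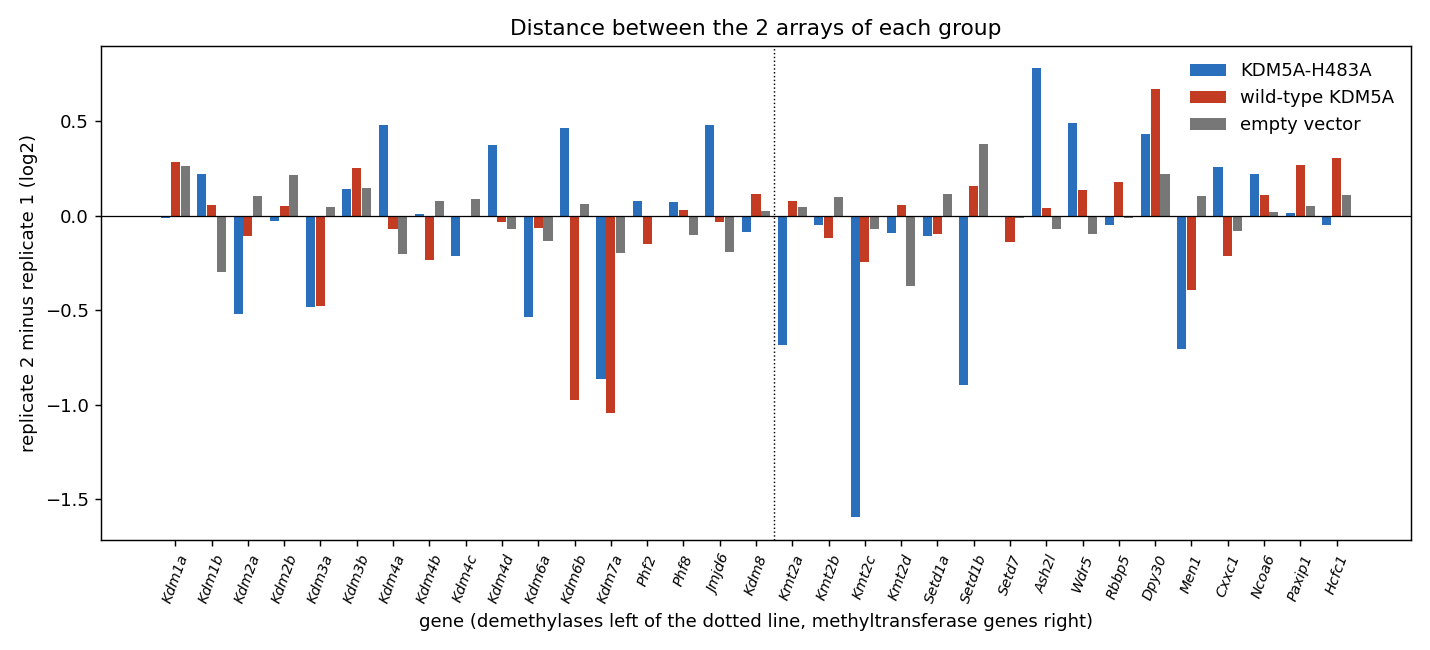
Replicate 2 minus replicate 1 of each group, in log2 units (vertical axis), for the 33 genes, with demethylases on the left and methyltransferase genes on the right of the dotted line. Bars reach -1.60 for Kmt2c and 0.78 for Ash2l in the KDM5A-H483A group and stay between -0.37 and 0.38 in the empty vector group.

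The 2 KDM5A-H483A arrays were at least 0.5 apart for 8 of the 33 genes (24.2%), against 14.9% of all genes. Replicate 2 was the lower one for 7 of them, Kmt2c, Setd1b, Kdm7a, Men1, Kmt2a, Kdm6a and Kdm2a, against 6.79% of all genes, and the higher one for Ash2l, against 8.08%. In the wild-type KDM5A group 3 of the 33 were as far apart, against 11.2% of all genes. Replicate 2 was the higher one for Dpy30 (4.52% of all genes) and the lower one for Kdm6b and Kdm7a (6.63%). The empty vector group had 0 of the 33, against 1.6% of all genes higher on replicate 2 and 2.19% lower. Within the KDM5A-H483A group all 4 KMT2 enzymes were lower on replicate 2, with a median of -0.39, against 9142 of 18194 genes in the whole table. Kmt2b and Kmt2d were lower by little, at -0.05 and -0.09, and a second Kmt2d probe set was higher, at 0.03. Of the 4 core subunits 3 were higher, with a median of 0.46 over the 4, against 9016 of 18194 genes. KDM5A-H483A replicate 2 was the lowest of the 6 arrays for 13 of the 33 genes, against 23.1% of all genes, and the highest for 7, also against 23.1%. The fibroblast markers had a median replicate distance of -0.93 in the KDM5A-H483A group, -1.0 in the wild-type KDM5A group and -0.20 in the empty vector group, and their part in the results of these genes was not tested. The difference between 3′ and 5′ control probe sets is a common measure of RNA quality, and its part in these results was not tested. For Actb it was 1.50 and 1.34 with KDM5A-H483A, 1.36 and 1.21 in wild-type KDM5A cells, and 1.64 and 1.43 with empty vector. For Gapdh it was 1.71 and 1.66 with KDM5A-H483A, 1.31 and 1.82 in wild-type KDM5A cells, and 1.86 and 1.74 with empty vector. The lowest Gapdh value was that of wild-type KDM5A replicate 1, the array with the highest Kdm3a, Kdm6b and Kdm7a levels, and its part in those levels was not tested.

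**Figure D4:**
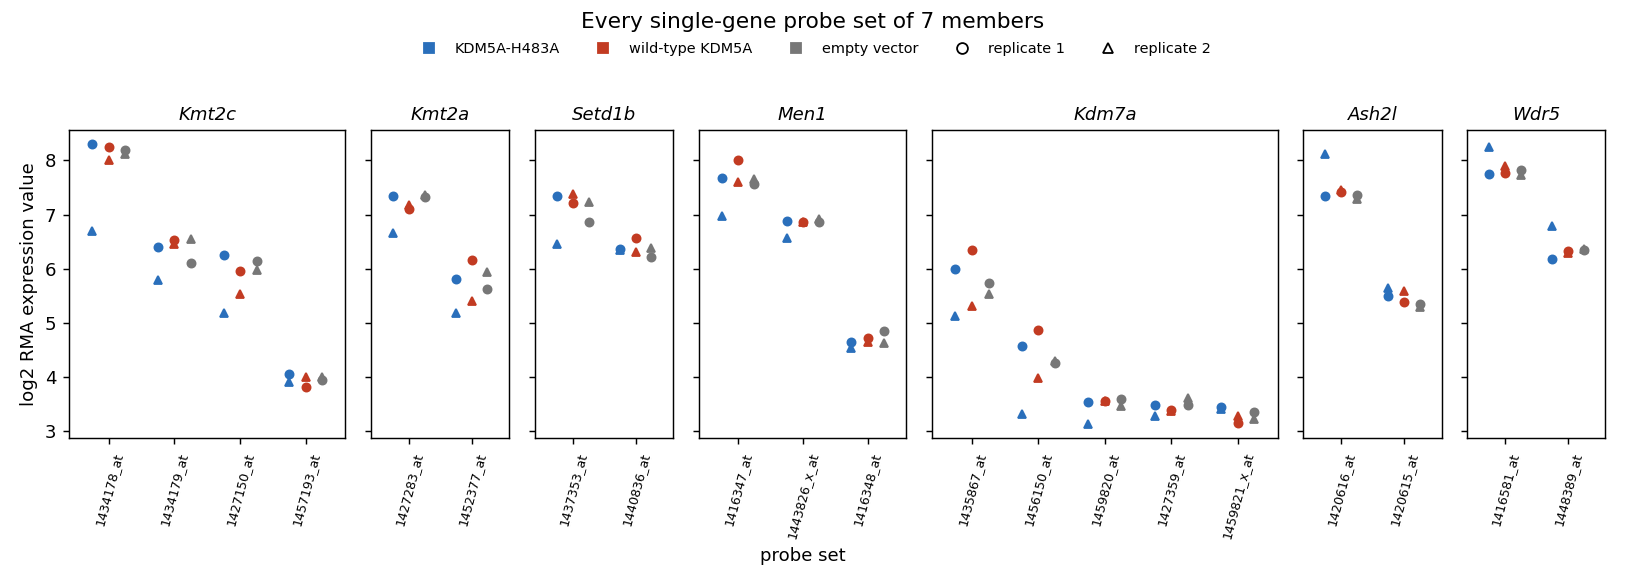
Log2 RMA expression value (vertical axis) of every single-gene probe set of Kmt2c, Kmt2a, Setd1b, Men1, Kdm7a, Ash2l and Wdr5 on the 6 arrays. On the brightest Kmt2c probe set KDM5A-H483A replicate 2 lies at 6.70, and on that of Ash2l it lies at 8.12.

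More than 1 probe set above the median level was available for 17 of the 33 genes. KDM5A-H483A replicate 2 was below replicate 1 on 3 of 3 such probe sets for Kmt2c, Men1 and Hcfc1, and on 2 of 2 for Kmt2a, Setd1b, Kdm6a and Kdm2a. The same held on 2 of 2 for Kdm1a. It was above replicate 1 on all such probe sets for Paxip1 (4), Jmjd6 (3), Ash2l, Wdr5 and Kdm3b (2 each). That makes 8 genes lower, 5 higher and 4 with both directions. The size differed between probe sets, as for Setd1b with -0.89 on one and -0.02 on the other. Between groups, all such probe sets of a gene gave the same sign for 13 of the 17 genes for KDM5A-H483A against wild-type KDM5A, 11 for KDM5A-H483A against empty vector and 7 for wild-type KDM5A against empty vector.

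**Figure D5:**
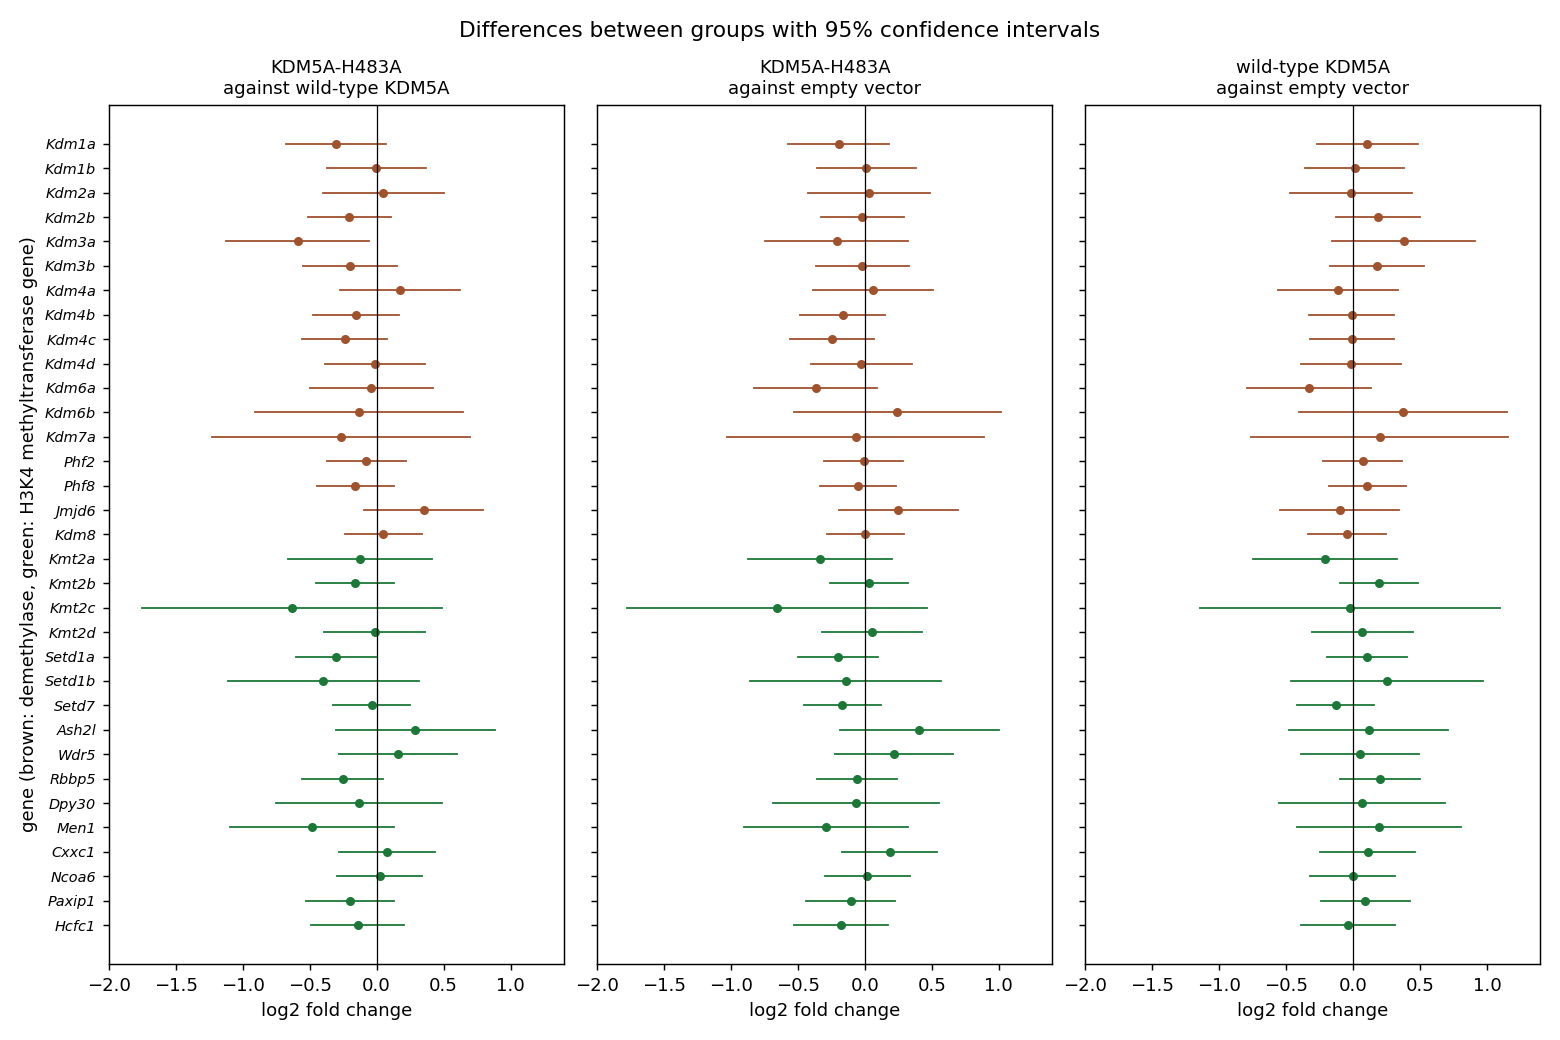
Log2 fold change of the 33 genes with its 95% confidence interval (horizontal axis) in the 3 comparisons, with demethylases in brown and H3K4 methyltransferase genes in green. The intervals of Kdm3a and Setd1a in the panel of KDM5A-H483A against wild-type KDM5A end below 0, and no adjusted p passed 0.05.

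Between the KDM5A forms, 13 of 17 erasers and 12 of 16 writers had lower means with KDM5A-H483A than in wild-type KDM5A cells, against 9382 of all 18194 genes. None of the erasers and writers passed the adjusted threshold in limma. Their medians were -0.13 and -0.14, against -0.01 over all genes. Without wild-type KDM5A replicate 1 the eraser median was -0.0077 and the writer median was -0.21, against 0.0132 over all genes in that fit. Without wild-type KDM5A replicate 2 the writer median was -0.0754. The arrays did not overlap, with the mutant lower, for 7 erasers (Kdm1a, Kdm2b, Kdm3a, Kdm3b, Kdm4b, Kdm4c and Phf8) and 4 writers (Kmt2b, Setd1a, Rbbp5 and Paxip1), that is 11 of 33, against 16.1% of all genes. Jmjd6 was the 1 gene with the mutant higher, against 14.9%. In either direction, 12 of the 33 did not overlap, against 31% of all genes. These counts were not tested, since the 33 genes share the same arrays.

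For KDM5A-H483A against empty vector, 11 of 17 erasers and 10 of 16 writers had lower means with the mutant, against 9053 of all 18194 genes. The medians were -0.02 and -0.09, against 0.001 over all genes. Without KDM5A-H483A replicate 2 they were -0.0857 and -0.0088, and without empty vector replicate 1 they were -0.0077 and -0.15. The eraser median was -0.06 without empty vector replicate 2 and -0.033 without KDM5A-H483A replicate 1. The mutant arrays were both below the empty vector arrays for 9 of the 33 genes, against 14.6% of all genes: Kdm1a, Kdm4b, Kdm4c, Kdm6a, Setd1a, Setd7, Rbbp5, Paxip1 and Hcfc1. For Hcfc1 a second probe set had the mutant arrays both above. Kdm1a, Kdm6a and Paxip1 each had another probe set above the median level on which these groups overlapped. By the chosen probe sets, the mutant arrays were both above for Cxxc1, against 13.6%. In either direction, 10 of the 33 did not overlap, against 28.2% of all genes, which is near the background.

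For wild-type KDM5A against empty vector, 9 of 17 erasers and 11 of 16 writers had higher means with wild-type KDM5A, against 51.3% of all genes. The medians were 0.01 and 0.08, against 0.005 over all genes. The eraser median was -0.0072 without wild-type KDM5A replicate 1, 0.0362 without wild-type KDM5A replicate 2, 0.0213 without empty vector replicate 1 and 0.0403 without empty vector replicate 2. The wild-type arrays were both above the empty vector arrays for 6 of the 33 genes, against 16.5% of all genes: Kdm2b, Kdm3a, Phf8, Kmt2b, Ash2l and Rbbp5. They were both below for Kdm6a, Setd7 and Kmt2a, against 15.4%. On a second probe set of Kdm6a and of Kmt2a these groups overlapped, with differences of 0.06 and -0.006. In either direction, 9 of the 33 did not overlap, against 31.8% of all genes, again near the background. Both comparisons of KDM5A-H483A share the mutant arrays, the comparisons against empty vector share the empty vector arrays, and both comparisons that involve wild-type KDM5A share its arrays, so their counts are not independent.

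Genes around the 33 in the same pathways also had 0 members past the adjusted threshold in limma in any comparison. These were 9 of 10 other subunits and SET-domain genes linked to H3K4, 14 of 15 methyltransferases of other histone sites, 11 of 12 other JmjC genes, 10 of 11 partners of Kdm1a, and 11 of 11 readers of H3K4, the first number being those measured. Between the KDM5A forms, 3 of these 55 measured genes (5.45%) had a limma unadjusted p under 0.05, against 3.81% of all genes, which is near the background. Ing2, a PHD-finger reader of trimethylated H3K4, had 6.07 and 5.83 with KDM5A-H483A, 5.53 and 5.40 in wild-type KDM5A cells, and 5.68 and 5.43 with empty vector. Its difference was 0.49 between the KDM5A forms (limma unadjusted p = 0.017, adjusted p = 0.928) and 0.40 between mutant and empty vector (unadjusted p = 0.039, adjusted p = 0.999). Bod1l, a partner of the SET1 complexes, differed by -0.50 between the forms, with 5.94 and 5.49 with KDM5A-H483A against 6.14 and 6.29 with wild-type KDM5A. Uty, the Y-linked relative of Kdm6a, differed by -0.87, with 7.11 and 6.17 with KDM5A-H483A against 7.61 and 7.40 with wild-type KDM5A.

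In the other comparisons the genes of these lists with the smallest unadjusted p included Smyd3 at 0.30, Psip1 at -0.40, Nsd3 at -0.36 and Chd1 at -0.55 for KDM5A-H483A against empty vector. They included Ing5 at 0.31 and Prdm2 at -0.26 for wild-type KDM5A against empty vector. Prdm9 and Gfi1 came first in their lists there too, but their probe sets lay below the median level of all probe sets, and no difference is given. Of the KDM5 family, Kdm5b had 7.69 and 7.80 with KDM5A-H483A, 7.56 and 7.36 in wild-type KDM5A cells, and 7.77 and 7.28 with empty vector. Kdm5d had 6.36 and 5.70 with KDM5A-H483A, 6.62 and 6.15 in wild-type KDM5A cells, and 6.47 and 6.57 with empty vector, a difference from empty vector of -0.49 with the mutant (95% confidence interval -1.11 to 0.12).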

How the data were processed

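Expression was measured in 6 array samples, 2 per group. The deposited table holds log2 values, for which the submitters' processing notes name RMA. That method corrects background, forces the arrays to 1 distribution and summarises each probe set, so it hides a change in total RNA per cell. The labels' protocols name a whole-transcript labelling kit, although probe sets of this array lie near 3′ ends.

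Of 45101 probe sets, 34958 had 1 gene symbol in the platform annotation, 932 several and 9211 none. Symbols of 34754 matched the RefSeq gene table. The probe set rule given above left 18194 genes, and other genes were not analysed here. Differences were tested on the deposited log2 values with limma 3.58.1 in R 4.3.3 (lmFit, eBayes, 1 mean per group over all 6 arrays), two-sided, with Benjamini-Hochberg adjustment over 18194 genes and a threshold of 0.05. The fit was tested on simulated data.

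The 33 members, the pathway and marker lists and the tests were chosen with earlier results of these data known. The text names all members, and of each pathway list genes among the 2 with the smallest unadjusted p. The labels do not say whether shared replicate numbers pair the arrays, so the fit has no replicate block. Promoters are RefSeq windows of GRCm38.p6. Alternatives covered the probe set rule, dim genes, scaling, prior variance, arrays in the fit, the replicate block and each array left out.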

Additional observations from a re-analysis of the deposited data

How the results depend on the processing

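No gene of the table passed the adjusted threshold in limma in any of 14 alternatives, 6 of which leave out 1 array each. The smallest adjusted p of a member was 0.230, for Kmt2c between the KDM5A forms without KDM5A-H483A replicate 1. Genes at an unadjusted p under 0.05 numbered 373 to 2335 between KDM5A-H483A and wild-type KDM5A, 113 to 2079 between KDM5A-H483A and empty vector, and 138 to 713 between wild-type KDM5A and empty vector. The counts of 2335 and 2079 were those without KDM5A-H483A replicate 1.

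Some list medians moved by more than the spread between replicates, and the cause was not tested. Between the KDM5A forms the eraser median was -0.0855 with the brightest probe set whatever its suffix, and the writer median was -0.0894 after repeated quantile normalization. Against empty vector, the writer median with KDM5A-H483A was -0.0336 with the mean of all probe sets. With wild-type KDM5A against empty vector, the writer median was 0.0283 with the mean of all probe sets and 0.0256 after repeated quantile normalization, and the eraser median was 0.0715 over genes above the median level. Setd1a between the KDM5A forms had an unadjusted p under 0.05 in 2 of the 14 alternatives (any suffix and array centring) and Kdm3a in 9. Leaving out each array in turn gave eraser medians of -0.14 to -0.0077 and writer medians of -0.21 to -0.0754 between the KDM5A forms. For KDM5A-H483A against empty vector they were -0.0857 to -0.0077 and -0.15 to -0.0088, and for wild-type KDM5A against empty vector -0.0072 to 0.04 and 0.07 to 0.11. Single members, none of them called, changed sign in up to 11, 10 and 9 cases per alternative in the 3 comparisons in this order.

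The replicate numbers shared by the labels were checked as pairs. Replicate distances correlated at 0.53 between the KDM5A groups, 0.31 between wild-type KDM5A and empty vector and 0.02 between KDM5A-H483A and empty vector, over 18194 genes. With the replicate block, limma gave 0 calls in all comparisons and 922, 502 and 713 genes at an unadjusted p under 0.05 in the same order of comparisons, among them Kdm3a at 0.0121 and Men1 at 0.0496 between the KDM5A forms, while Setd1a was no longer among them. Because each group had 2 arrays, leaving 1 out assumes that the lone array varies like the other groups.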
